A study of Bos taurus with 47 samples.

Results

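The lactating mammary gland of 1 Holstein cow was compared with the dry mammary gland of a second Holstein cow, with 1 RNA library for each gland out of 47 in the series. Both libraries were picked by their tissue label. The cow of the lactating gland is called the lactating cow here and the cow of the dry gland the dry cow. The other 45 libraries cover 13 labels. Spleen, rumen, muscle, lung, liver, kidney, ileum, heart, frontal cortex and adipose tissue have 4 libraries each, from both cows and from 2 males. Ovary and uterus have 1 library from each cow, and lymphocytes have 1 library from a further male. All animals are Holstein cattle with no treatment on their labels, and their age and the stage of lactation or of the dry period are not given in the sources used here. Because each gland is 1 library of a different cow, stage and cow cannot be told apart in the gland, and no test, p-value or replicate error is given for the gland ratio.

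The mammary gland makes milk in alveoli lined by secretory epithelium, wrapped in contractile myoepithelial cells and set in a stroma of fibroblasts, fat cells, vessels and immune cells. In lactation the epithelium makes milk proteins, synthesises and takes up fatty acids for milk fat, and draws on glucose for lactose. When milking stops, the secretory epithelium regresses and is rebuilt before the next calving, and the stroma makes up more of the tissue. In bulk RNA, fewer cells of a type and less RNA per cell cannot be told apart.

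The deposited table gives FPKM, a fragment count divided by transcript length and by the library's total, for 24616 Ensembl gene identifiers. It pairs none of them with a gene name, and the reference table used here holds no Ensembl identifiers, so 0 identifiers could be named. Genes are therefore described by where else in the animal they were abundant, and the lists of milk, fat, lactose, immune and stromal genes that had been drawn up by symbol could not be applied. For the same reason the glands could not be checked against epithelial markers by name. In place of that check, values can be given for the 7 most abundant genes of the lactating gland, at 28404 to 157804 FPKM there and at 354 to 3456 FPKM in the dry gland. The highest of the other 45 libraries had 35.7 to 239 FPKM of these 7 genes and was in each case the ovary of the dry cow. The dry gland was 4.802 to 20.5 times above that library. These genes were chosen as the highest of the lactating library, and the next gene of the same list was not gland-restricted, with 3324 FPKM in the lactating gland and 3634 in the highest heart library, so this is a description and no test of the labels.

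The 10 genes most abundant in the lactating gland were left out of the comparison, as they took 75.6% of its summed FPKM and 3.06% of that of the dry gland. They include the 7 genes just described. The gene at rank 8 had 38.9 FPKM in the dry gland and a mean of 3144 in heart. The genes at ranks 9 and 10 had 2638 and 2175 FPKM in the lactating gland and 5024 and 5707 in the dry gland, and their highest other labels were rumen and uterus. For these genes the direction turns with the scale, since multiplied by the rescaling factors given next they come to 11511 and 9489 in the lactating gland and 7566 and 8593 in the dry gland. Both columns, and those of the other labels, were then rescaled to a sum of 1000000 over the remaining genes, and these rescaled FPKM are the levels given from here on. Rescaling multiplied the lactating values by 4.36 and the dry values by 1.51. The number of fragments behind a value is unknown in both libraries, so no counting interval can be set on any level, and lists of low genes are the least certain.

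Beyond the leading 10, most genes stood at similar levels in both glands, and more of the differences of 4-fold or more were on the dry side. Among 13864 genes with a level of at least 1 in either gland, 387 (2.79%) were higher in the lactating gland by 4-fold or more and 821 (5.92%) were lower by 4-fold or more, on the scale of log2(level + 1). Together these were 1208 genes (8.71%). At 16-fold or more the order turned, with 75 higher and 34 lower genes of the 13864. Ratios within 2-fold were found for 9204 genes (66.4%). The median log2 ratio was -0.37, so the count on either side depends on where the ratio of 0 is set. After scaling that brought the median near 0 (-0.04), there were 523 higher and 527 lower genes, and all 387 higher genes and 527 of the 821 lower genes were still past 4-fold. A level of 0 was listed in the dry gland for 14 of the 387 higher genes and in the lactating gland for 52 of the 821 lower genes. A ratio against a listed 0 depends on the 1 that is added.

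Higher and lower genes each held a large share of the gland where they were higher, and that order of the glands is fixed by their choice. The 387 higher genes held 13.2% of the rescaled sum in the lactating gland and 1.004% in the dry gland, with a median level of 85.5 in lactating and 8.37 in dry. The 821 lower genes held 1.45% of the sum in lactating and 10.5% in dry, with a median level of 4.61 in lactating and 34.3 in dry. The shares of higher and of lower genes were both larger at levels of 10 or more than below 10. With 1 added, genes near a level of 1 cannot reach 4-fold in either direction, which holds down the shares below 10. Of the 181 genes at 1000 or more in either gland, 32 (17.7%) were 4-fold or more higher in lactation and 13 (7.18%) were 4-fold or more lower. Of the 1740 genes between 100 and 1000, 147 (8.45%) were higher and 186 (10.7%) lower. Of the 7390 between 10 and 100, 150 (2.03%) were higher and 476 (6.44%) lower. Of the 4553 genes between 1 and 10, the higher ones were 58 (1.27%) and the lower ones 146 (3.21%). Only at 1000 or more did higher genes outnumber lower ones. The plot of gland ratio by level shows the higher genes spread over all levels and the lower genes mostly at low and middle ones.

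**Figure D1:**
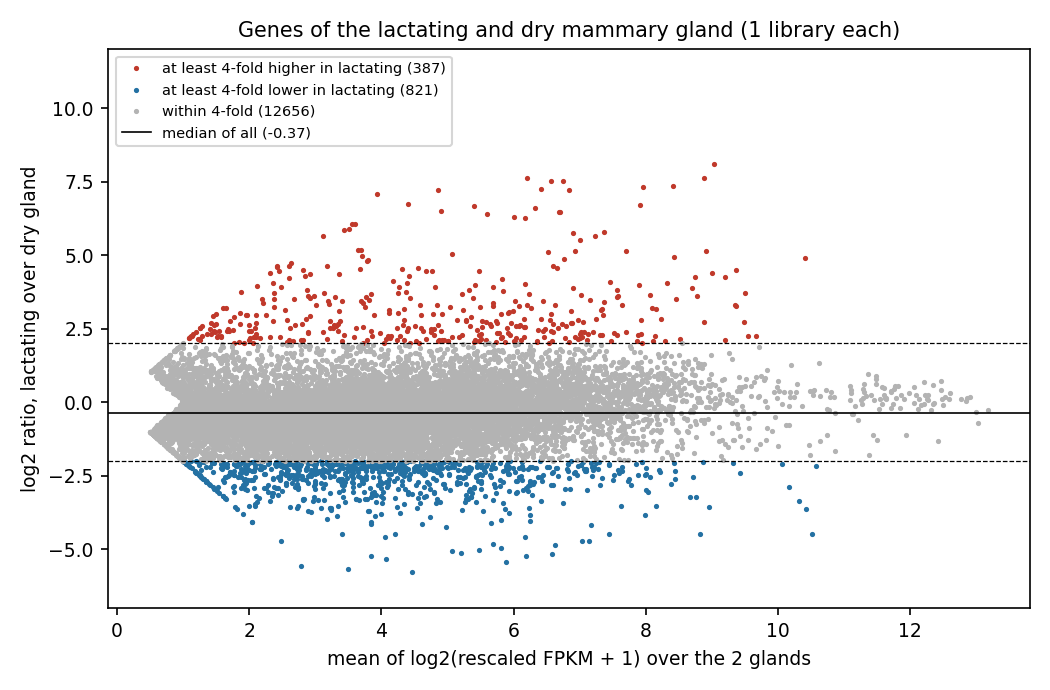
Each point is 1 of 13864 genes, with the mean log2(rescaled FPKM + 1) of both glands on the x axis and the log2 ratio, lactating over dry, on the y axis. The dashed lines mark 4-fold, the 387 higher genes are red, the 821 lower ones blue, and the solid line is the median at -0.37.

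The 8807 genes with a mean of 1 or more in all of the other 13 labels had a median log2 ratio of -0.25, with 162 (1.84%) higher and 302 (3.43%) lower by 4-fold or more in the lactating gland. The 3120 of them with a mean of 10 or more in all of the other 13 labels had a median log2 ratio of -0.06, with 59 (1.89%) higher and 58 (1.86%) lower. Genes with a mean of 1 or more in only 10 to 12 of the other labels had a median of -0.74, with 62 of 2512 (2.47%) higher and 279 (11.1%) lower. For the 541 genes that reached 1 in only 1 to 3 other labels both shares were large, with 54 (9.98%) higher and 59 (10.9%) lower. No library-to-library error stands behind these shares, and no difference between them was tested.

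The 20 genes with the largest ratios among those with a level of at least 10 in either gland had log2 ratios of 6.29 to 8.09. Their levels ran from 176 to 8604 in the lactating gland and from 0.319 to 32.3 in the dry gland. The lactating gland was above all 13 other labels for 19 of the 20, and at least 4-fold above them for 12. Picking genes by a large ratio favours this. Among the 12737 genes at 1 or more in the lactating gland, 97 (0.762%) were at least 4-fold above all 13. The dry gland was above all 13 for 4 of the 20. For 6 of the 20 no other label had a mean of 10 or more.

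The largest of these ratios was that of ENSBTAG00000048250, which was nearly confined to the gland among the 15 labels. Its level was 8604 in the lactating gland and 30.5 in the dry gland, a log2 ratio of 8.09. Across the other 13 labels its means ran from 0 in uterus, muscle and lymphocytes to 1.98 in ovary. That ovary mean came from 1 library, with a level of 0 in the lactating cow and 3.96 in the dry cow. The 7 most abundant lactating genes were left out of the rescaling, so their ovary values are compared in deposited FPKM. By the median of these genes, the dry cow's ovary reached 1405 ppm (the ratio times 1000000) of the lactating gland. The ovary of the lactating cow was at 0 ppm. These ratios are on another scale than the rescaled levels just given. The part of this difference in the ovary values was not tested. The genes at ranks 7 and 14 also stood out from all other labels, at 3129 and 424 in the lactating gland and 18.5 and 3.18 in the dry gland, with highest other label means of 0.580 (ovary) and 0.695 (liver).

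The second largest ratio belonged to a gene that adipose tissue also used. ENSBTAG00000045728 stood at 6617 in the lactating gland and 32.3 in the dry gland, a log2 ratio of 7.64. It was measured in all 13 other labels, lowest in spleen (5.95 ± 1.58, SD, n = 4). In adipose tissue it had a mean of 3604 ± 2626 (SD, n = 4), with 1308 in the lactating cow, 1927 in the dry cow and 4057 and 7125 in the males. The next label, ovary, had 564 in the lactating cow and 98.6 in the dry cow. The dry gland thus lay below 8 of the 13 other label means, and the lactating gland above every one of them, though not above each adipose library.

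Adipose tissue was the highest other label of 5 of the 20 genes, at ranks 2, 3, 5, 6 and 13. In rank order their levels were 6617, 1037, 1450, 4366 and 2453 in the lactating gland, 32.3, 4.25, 6.99, 25.7 and 22.4 in the dry gland, and 3604, 353, 533, 2302 and 814 on average in adipose tissue. These identifiers may not be 5 independent genes. The level at rank 2 over that at rank 6 stayed between 0.794 and 1.57 in all 15 labels, and the level at rank 3 over that at rank 5 between 0.622 and 1.001 in the 9 labels where both reached 5. Whether these pairs are parts or copies of 1 gene was not tested, as no genome of the authors' build was used. Within adipose tissue the lactating cow was not uniformly above the dry cow. At ranks 2 and 6 the lactating cow had 1308 and 773, below the 1927 and 1215 of the dry cow. At ranks 3, 5 and 13 the lactating cow had 183, 255 and 442, above the 74.3, 108 and 370 of the dry cow.

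The rest of the 20 genes had another highest label, for some of them at a low mean. Liver was the highest other label for 3 of the 20, kidney and lung for 2 each, ileum for 2, rumen and lymphocytes for 1 each and ovary for 4. The liver mean was only 0.695 at rank 14. At ranks 1, 7, 11 and 12 the ovary means were 1.98, 0.580, 10.8 and 3.59, and at ranks 1, 7 and 11 1 of the 2 ovary libraries was at 0. At rank 4 a gene with 1283 in the lactating gland and 5.97 in the dry gland had 66.9 ± 62.2 in ileum (SD, n = 4). At rank 16 a gene with 282 in the lactating gland and 2.17 in the dry gland had 190 ± 20.97 in kidney (SD, n = 4). At rank 19 a gene with 446 in the lactating gland and 4.25 in the dry gland had 300.1 ± 122 in lung (SD, n = 4). At rank 20 the liver remained above the gland, with 564 in the lactating gland, 6.25 in the dry gland and 1769 ± 266 (SD, n = 4) in liver.

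The 20 genes with the smallest ratios had log2 ratios of -5.78 to -4.50. Their levels ran from 0 to 26.4 in the lactating gland and from 27.6 to 730 in the dry gland. The dry gland was above all 13 other labels for 15 of them, at least 4-fold for 8. Picking genes by a small ratio favours this. Among the 13414 genes at 1 or more in the dry gland, 53 (0.395%) were at least 4-fold above all 13. Lung was the highest other label for 5 of the 20, and rumen and frontal cortex for 4 each. Ileum was so for 2, and spleen, lymphocytes, ovary, uterus and adipose tissue for 1 each. None was a gene of the gland alone, since in each case another label had a mean of at least 11.3.

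ENSBTAG00000001823 had the smallest ratio and was far higher in the dry gland than in any other library. It had a level of 1.98 in the lactating gland and 163 in the dry gland, a log2 ratio of -5.78. Spleen came next with 12.99 ± 3.86 and heart with 8.80 ± 2.40 (SD, n = 4 each), and it was at 0 in all 4 liver libraries and in lymphocytes. Between the same cows in the other 12 tissues its log2 ratio, lactating cow over dry cow, stayed between -0.61 and 0.94.

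ENSBTAG00000021565 had the next ratio, but its difference was one between the cows in every tissue. It had a level of 0.560 in the lactating gland and 79.8 in the dry gland, a log2 ratio of -5.69. In the other 12 tissues of the lactating cow it lay between 0 and 0.597, with 9 libraries at 0. In those of the dry cow it lay between 8.88 (frontal cortex) and 139 (lung), with a median of 30.5. Neither male passed 0.433 in any of 10 tissues, while the lymphocytes of the further male had 136. The gene at rank 3 did likewise, listed at 0 in the lactating gland and at 46.6 in the dry gland, at 0 to 1.16 in the other tissues of the lactating cow and at 42.5 to 322 in those of the dry cow, with both males between 10.5 and 376.

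**Figure D2:**
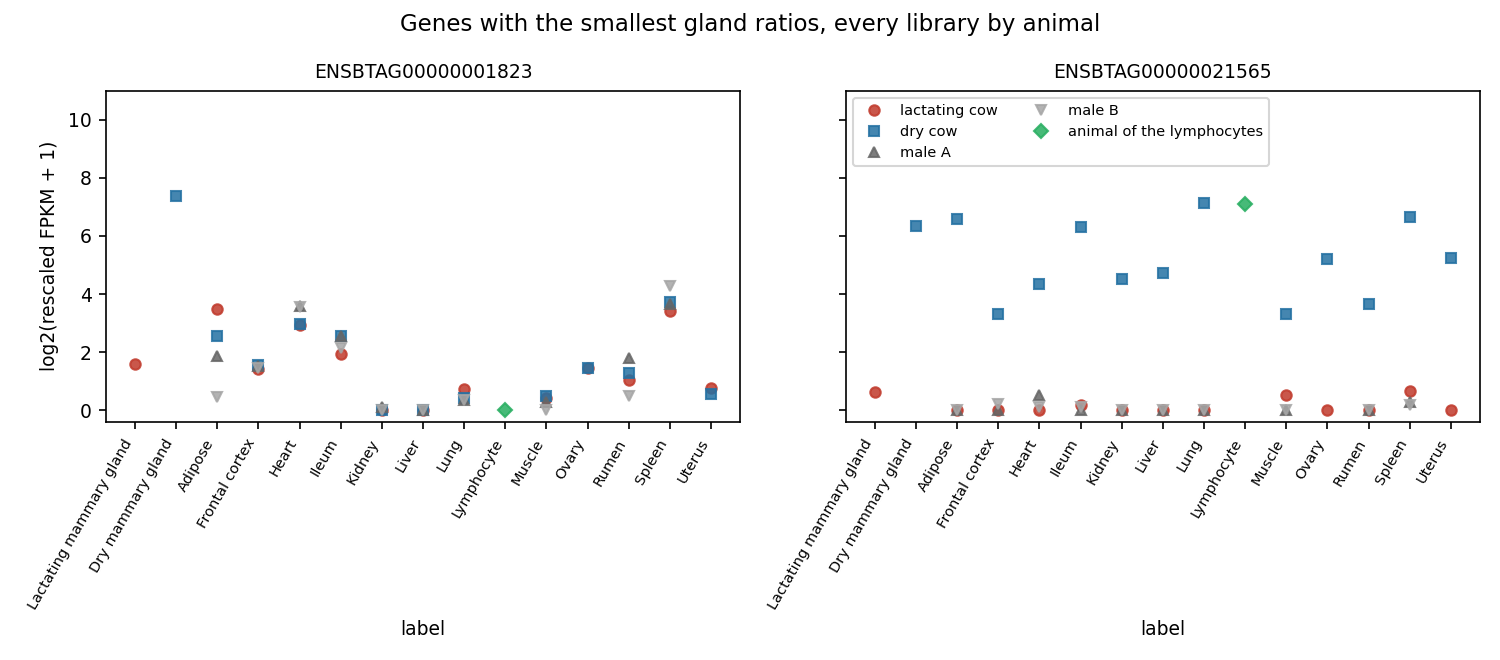
The levels, as log2(rescaled FPKM + 1), of the genes with the smallest and the next smallest gland ratio are plotted in every library by label, with 1 symbol per animal. ENSBTAG00000001823 separates the glands and no other tissue of the cows, while ENSBTAG00000021565 is at 8.88 or more in every library of the dry cow and at 0.597 or less in every library of the lactating cow.

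**Figure D3:**
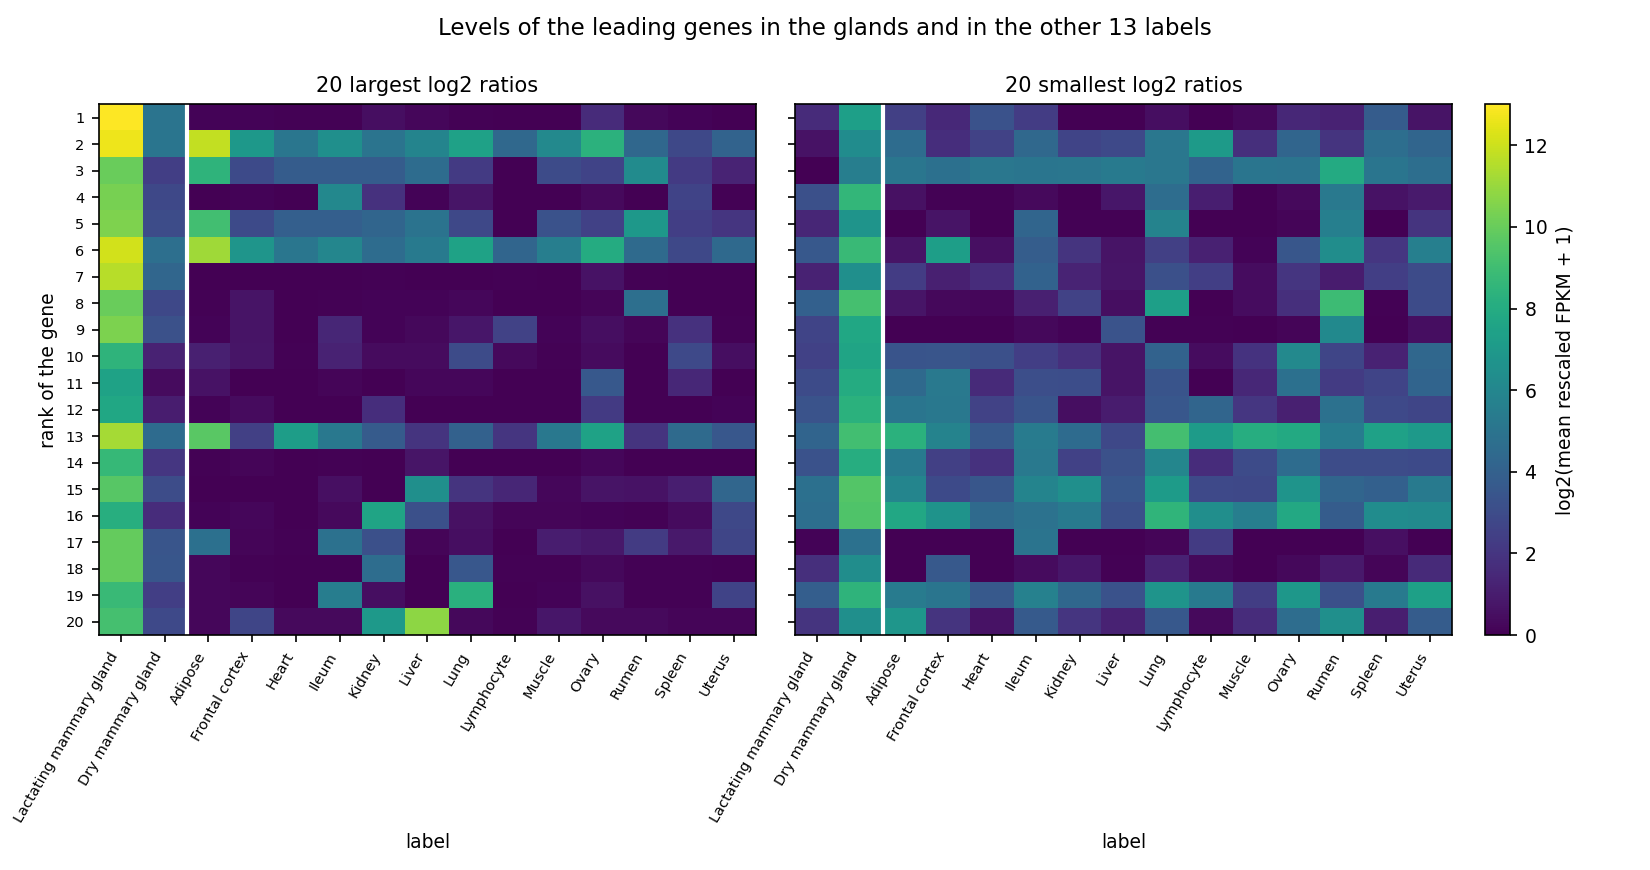
Colour gives log2(mean rescaled FPKM + 1) in the lactating gland, the dry gland and the other 13 labels (1 to 4 libraries each) for the 20 genes with the largest log2 ratio on the left and the 20 with the smallest on the right, ranked from the top. On the left the lactating gland is above all other labels in 19 genes, and on the right the dry gland is above them in 15. The choice of genes by ratio favours both counts.

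The size of the cow-to-cow difference elsewhere was measured in the same way in the 12 tissues sampled from both. At least 4-fold differences in either direction were found for 718 genes in ovary (5.31%), 195 in uterus (1.44%), 89 in spleen (0.669%), 80 in ileum (0.563%), 79 in lung (0.557%), 71 in adipose tissue (0.534%), 61 in kidney (0.457%), 50 in frontal cortex (0.355%), 33 in liver (0.274%), 24 in muscle (0.213%), 22 in rumen (0.177%) and 20 in heart (0.177%). The gland, with 1208 genes, had more than any of them, and ovary came next. Of the 387 higher genes, 342 (88.4%) had a gland ratio above the highest of the 12 tissue ratios, against 1848 of all 13864 genes (13.3%). Of the 821 lower genes, 772 (94.0%) had a gland ratio below the lowest tissue ratio, against 4635 of all genes (33.4%). A gene past 4-fold is bound to pass that range more often, so these shares only describe size.

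**Figure D4:**
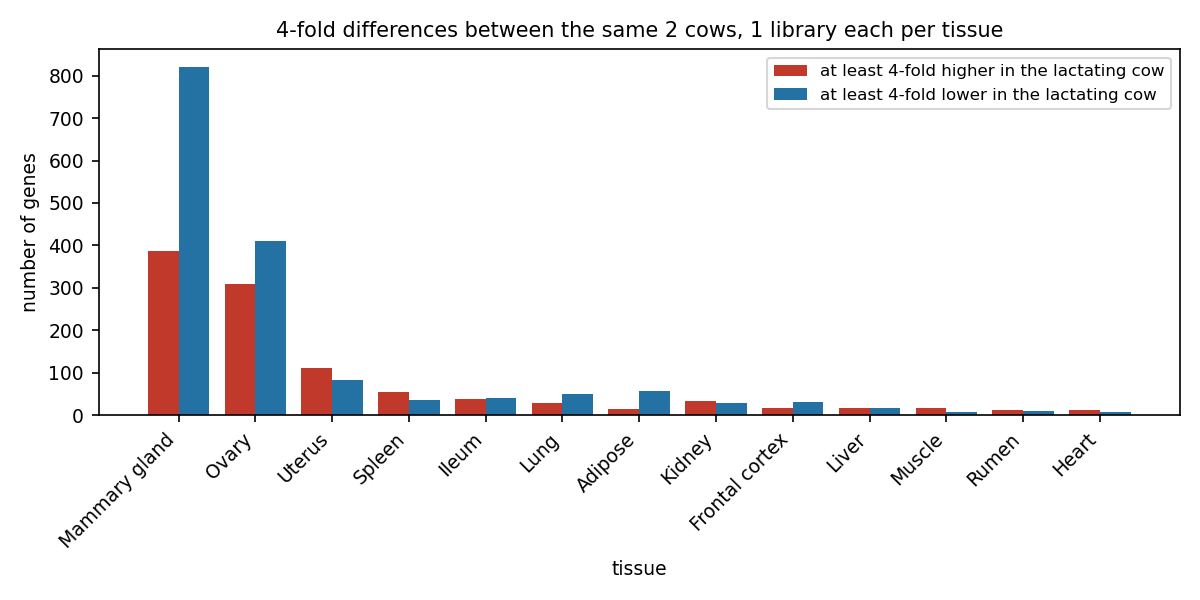
Bars count the genes at least 4-fold higher (red) and at least 4-fold lower (blue) in the lactating cow than in the dry cow in each tissue, with 1 library per cow. The mammary gland has 387 and 821, ovary 308 and 410, uterus 112 and 83, and every other tissue fewer than 60 on either side.

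A further rule, chosen after values were seen, found 4 genes past 4-fold in the gland that were past 4-fold in the same direction in every other tissue in which they could be measured, out of 12764 genes measured in at least 6 of them. Of the 4, 2 are the lower genes just described. The other two were higher in the lactating cow. One had a level of 1524 in the lactating gland and 125 in the dry gland, with 433 to 1820 in the other tissues of the lactating cow and 31.0 to 197 in those of the dry cow. The other had 72.0 in the lactating gland and 1.34 in the dry gland, with 10.5 to 505 in the other tissues of the lactating cow and 0 to 4.52 in those of the dry cow. In the males this last gene stood at 9.39 to 513 in one and at 0 to 2.80 in the other.

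Genes of the gland lists also differed between the cows in other tissues, where their shares are set beside those of all genes measured in that tissue. Of the 821 lower genes, 712 could be measured in ovary and 239 (33.6%) of these were at least 2-fold lower in the lactating cow, against 13.8% of all genes measured in ovary. In ileum this was 108 of 754 (14.3%, against 5.26% of all genes), in liver 60 of 584 (10.3%, against 2.30%) and in adipose tissue 64 of 695 (9.21%, against 3.70%). In uterus it was 119 of 725 (16.4%, against 5.13%), with 44 (6.07%, against 4.75%) at least 2-fold higher. In heart it was 11 of 566 (1.94%) each way, against 0.656% of all genes lower and 0.621% higher. The tissues named here are only some of the 12. Of the 387 higher genes, 43 of 284 (15.1%) were at least 2-fold higher in the spleen of the lactating cow, against 1.53% of all genes, and 85 of 299 (28.4%) in the ovary, against 9.75%. In adipose tissue of the lactating cow, 14 of 286 of these (4.90%, against 0.924% of all genes) stood 2-fold or more above the dry cow and 16 (5.59%, against 3.70%) stood 2-fold or more below it. Some genes went the other way. Of the higher genes, 53 in ovary (17.7%, against 13.8% of all genes) and 6 in spleen (2.11%, against 1.41%) were at least 2-fold lower. Of the lower genes, 39 in ileum (5.17%, against 3.31%) and 12 in adipose tissue (1.73%, against 0.924%) were at least 2-fold higher. For lower genes in ovary and liver this was 58 (8.15%, against 9.75%) and 6 (1.03%, against 1.31%). No difference between these shares was tested.

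Groups of genes were next formed from the other 13 labels alone, without the glands. A gene was counted as raised in a label when its mean there was at least 5 and, with 1 added, at least 4 times the median of the other 12 labels. Of the 13864 genes, 8028 were raised in no label, 2778 in 1 and 3058 in more than 1, so the groups overlap. Values are set against the median of all genes, -0.37.

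Genes raised in uterus and in adipose tissue had the lowest median ratios of the 13 groups. Of 574 uterus genes, 154 (26.8%) were at least 4-fold lower and 21 (3.66%) at least 4-fold higher, with a median log2 ratio of -1.23. Of 866 adipose genes, 200 (23.1%) were lower and 48 (5.54%) higher, with a median of -1.22. These groups share 215 genes, 74 of them among the lower ones. The lower uterus genes had a median level of 8.45 in the lactating gland, 48.7 in the dry gland and 56.9 in uterus, where the order of the glands is set by the choice of lower genes. The lung group followed, with 228 of 1449 (15.7%) lower, 58 (4.00%) higher and a median of -0.96. The 228 lower lung genes had a median level of 6.26 in the lactating gland and 42.8 in the dry gland, and 85 of them were higher in the dry gland than in lung.

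The adipose group held genes far higher and genes far lower in the lactating gland, though most of its genes were neither. Genes enriched in adipose tissue had a mean there at least 4 times that of each of the other 12 labels. Of the 74 measured, 15 (20.3%, against 2.79% of all genes) were at least 4-fold higher and 15 (20.3%, against 5.92%) at least 4-fold lower. Adipose tissue was not alone in this. Of 92 genes enriched in liver by the same rule, 9 (9.78%) were higher and 16 (17.4%) lower. Of 84 enriched in lymphocytes, only 1 (1.19%) went each way. The 15 higher adipose genes had a median level of 310 in the lactating gland, 11.4 in the dry gland and 402 in adipose tissue. In the lactating gland, 10 of them were above adipose tissue. They summed to 21037 in the lactating gland and 325 in the dry gland. The 5 identifiers at ranks 2, 3, 5, 6 and 13 described before are among them and made up 15923 of that sum in the lactating gland and 91.6 in the dry gland, so the possible copies named there bear on both the count and the sum. The 15 lower adipose genes had a median of 19.5 in the lactating gland, 148 in the dry gland and 528 in adipose tissue. None reached its adipose level in either gland. The order of the glands within each set is fixed by the way the sets were split.

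Genes raised in spleen had a median log2 ratio of -0.87, with 63 of 945 (6.67%, against 2.79% of all genes) at least 4-fold higher and 75 (7.94%, against 5.92%) lower. Among the 48 measured genes enriched in spleen alone, 11 (22.9%) were higher and 3 (6.25%) lower. The 11 had a median of 158 in the lactating gland, 28.7 in the dry gland and 436 in spleen, and none of them was above its spleen level in the lactating gland. Genes raised in lymphocytes had 30 of 1255 (2.39%) higher and 50 (3.98%) lower and a median of -0.66. Both of these shares lay below those of all genes.

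Kidney, liver, heart and muscle groups lay closer to the median of all genes or above it. Kidney genes had a median log2 ratio of -0.29, with 80 of 1038 (7.71%) at least 4-fold higher and 102 (9.83%) lower, and liver genes had a median of -0.47, with 55 of 644 (8.54%) higher and 75 (11.6%) lower. Heart was the one group with a median above 0, at 0.21, with 17 of 387 genes each way (4.39%). Muscle genes, at -0.33, had 17 of 361 (4.71%) higher and 25 (6.93%) lower. Rumen had 33 of 494 (6.68%) higher and 82 (16.6%) lower, and ovary 35 of 479 (7.31%) higher and 81 (16.9%) lower. Ileum had 62 of 1341 (4.62%) higher and 145 (10.8%) lower, and frontal cortex 61 of 1569 (3.89%) higher and 164 (10.5%) lower. Group medians were recomputed under 3 other scalings (median set to 0, quantile normalization and the deposited values). In these the side of the median of all genes on which a group lay changed for liver, whose median lay 0.11 below that of all genes here and 0.15 above it in the deposited values.

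**Figure D5:**
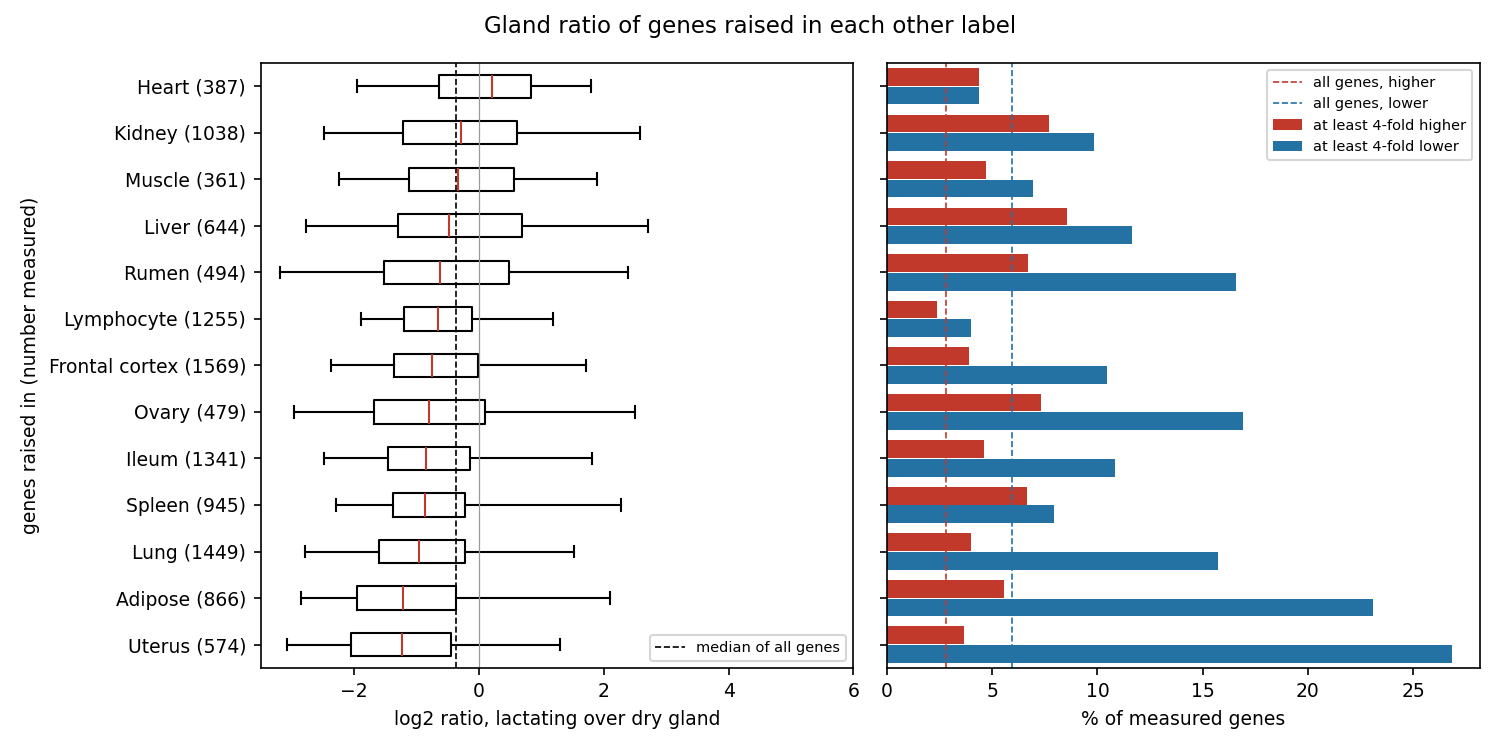
On the left, boxes give the median and quartiles, and whiskers the range from the 5th to the 95th percentile, of the log2 ratio, lactating over dry gland, for genes raised in each of 13 labels, with the number measured in brackets and the median of all genes dashed. On the right, bars give the percentage at least 4-fold higher (red) and lower (blue), with the percentages of all genes, 2.79% and 5.92%, dashed.

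Transcripts restricted to liver, muscle or rumen were followed in the glands as traces. Genes restricted to liver (18 genes with a mean of 2000 FPKM or more there, 100 times or more that of all other labels, the glands included) stood at a median of 118 ppm of their liver level in the lactating gland and 122 ppm in the dry gland. Genes restricted to muscle (9 genes) stood at 207 ppm in the lactating gland and 205 ppm in the dry one, and genes restricted to rumen (10 genes) at 540 ppm in the lactating gland and 777 ppm in the dry one. Of these genes 1, a liver gene, was among the 821 lower genes, and none was among the higher ones. Of all 13864 genes 5.92% were lower and 2.79% higher, so with this few genes the count says nothing about them. Their low level in both glands is set by the rule that chose them.

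Genes at least 4-fold above all 13 other labels numbered 97 in the lactating gland (0.762% of genes at 1 or more there) and 53 in the dry gland (0.395%), of which 18 were in both. The 97 held 7.89% of the rescaled sum in the lactating gland and 3.47% in the dry gland, and 67 of them were among the 387 higher genes. The 53 held 2.99% in the lactating gland and 3.91% in the dry gland, and 34 of them were among the 821 lower genes. Each set was chosen by a high level in 1 gland, which favours a larger share there and an overlap with that gland's list. Of all 13864 genes, 2.79% were higher and 5.92% lower by 4-fold or more. Without the ovary library of the dry cow the counts were 94 for the lactating gland and 54 for the dry gland. In the deposited values the order of the glands turned, with 37 genes for the lactating gland and 47 for the dry gland.

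Some of the gland genes were abundant in both glands. The genes at ranks 2 and 4 by level among the 97 had 8383 and 6509 in the lactating gland and 10186 and 10714 in the dry gland, where they were the highest of the genes kept, while their highest other labels were kidney (569) and lung (38.6). Others were far higher in lactation. The gene at rank 3 had 7452 in the lactating gland and 248 in the dry gland, with 1115 in rumen, and that at rank 6 had 2849 in the lactating gland and 79.8 in the dry gland, with 484 in lung. Still others were higher in the dry gland. Those at ranks 3 and 4 among the 53, which are also among the 18 genes of both glands, stood at 391 and 397 in the lactating gland and at 4843 and 4112 in the dry gland, against highest other means of 73.8 (rumen) and 29.4 (liver), and that at rank 5 at 94.9 in the lactating gland and 2146 in the dry gland, against 47.4 in spleen.

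The dry gland had higher correlations than the lactating gland with 9 of the 13 other labels, with the widest gaps for lung, uterus and adipose tissue, and lower ones with kidney, liver, muscle and lymphocytes. Spearman correlations of levels across 17034 genes, which are not replicates, were 0.837 with lung, 0.838 with uterus and 0.836 with adipose tissue for the lactating gland, and 0.890, 0.890 and 0.882 with the same tissues for the dry gland. With ileum, spleen and ovary they were 0.808, 0.810 and 0.841 for the lactating gland and 0.840, 0.838 and 0.867 for the dry gland. With kidney, liver and muscle they were 0.805, 0.777 and 0.782 for the lactating gland and 0.795, 0.772 and 0.780 for the dry gland. The glands correlated at 0.912 with each other, above their correlation with any other label.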

How the data were processed

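Per the labels' protocols, DNase-treated total RNA was made into TruSeq libraries and read as pairs of 150 bases. Trimmomatic 0.39, Cufflinks and STAR are named, beside the assembly UMD3.1, per the submitters' processing notes, which give no settings here. The authors deposited FPKM values for 24616 Ensembl identifiers in 51 columns, of which 47 matched a sample and 4 were left unused because no title matched them. The names of 2 of these 4 bear the numbers of the cows of the glands, and whether they hold repeat runs, which would give a technical spread, is not stated. For 1 muscle library the column name has 1 letter more than the title.

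The 10 identifiers highest in the lactating library were left out, every column was rescaled to a sum of 1000000, and log2 ratios of level + 1 were taken among genes with at least 1 in either gland, with 4-fold as the mark. This scale understates differences of low genes. With 1 library per gland there is no test. Depth is unknown. Identifiers printed are the top 2 each way with a level of at least 10, and other genes are given by rank. The lists and members, and the groups by tissue, were chosen with earlier results of these data known. The leaving out and rescaling were checked on simulated data built from the dry library, without low genes and with less than 1 added. That check does not bear on low genes, on the added 1 or on the median ratio of all genes. Computation used matplotlib 3.10.9, pandas 2.3.3, numpy 2.4.6 and Python 3.11.15.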

Additional observations from a re-analysis of the deposited data

Results flagged for a closer look

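For the 4 identifiers printed, 26 sets of 4 libraries of a tissue were searched for a library far from the other 3, and 11 were found. No rate by chance can be set beside this. The identifiers were picked for their gland ratio, and many of the sets hold repeated levels of 0. In 10 of these, the gene is ENSBTAG00000021565 and the library that of the dry cow, with a level of 93.8 in adipose tissue, 8.88 in frontal cortex, 19.5 in heart, 78.6 in ileum, 21.7 in kidney, 25.5 in liver, 139 in lung, 8.90 in muscle, 11.5 in rumen and 98.5 in spleen, and at most 0.597 in the other 3 libraries of each tissue. These are the same difference between animals seen in 10 tissues, not 10 separate findings. The remaining one is ENSBTAG00000045728 in lung, at 65.3 in the lactating cow, against 208 in the dry cow and 207 and 214 in the males.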

How the results depend on the processing

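Counts of genes at least 4-fold higher and lower (387 and 821) were 108 and 3437 in the deposited values, 87 and 6058 with 0 genes left out, 251 and 1371 with 5 left out, 601 and 1541 with 0.1 added, and 249 and 335 with 5 added. Lower genes were 483 after quantile normalization (520 higher, median ratio 0.01) and 527 with the median set to 0 (523 higher). The median of all genes was -1.50 in the deposited values. The ratios of the identifiers printed kept their sign and stayed past 4-fold in every setting that kept them.

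The numbers of genes left out and the addition of 5 were tried for the counts, not for the group medians. Group medians minus the median of all genes were judged against the SD of the same quantity between the cows over 12 tissues. In the deposited values they were -0.60 for adipose tissue (-0.86 with the values as reported), -0.013 for frontal cortex (-0.39), 0.48 for heart (0.58), -0.17 for ileum (-0.48), 0.15 for liver (-0.11, a change of sign), -0.42 for lung (-0.59), -0.11 for lymphocytes (-0.30), 0.31 for muscle (0.04), -0.23 for spleen (-0.51) and -0.57 for uterus (-0.86). Frontal cortex had -0.46 with the median set to 0, -0.32 after quantile normalization and -0.57 with 0.1 added. Heart had 0.48 and muscle 0.12 after quantile normalization, and uterus -1.17 with 0.1 added.

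Genes highest in the lactating and the dry gland (97 and 53) were 259 and 151 at 2-fold and 52 and 25 at 8-fold, and 37 and 47 in the deposited values, where their order turns. With 5 added, 218 higher and 326 lower genes lay outside the range of 12 tissues. The settings without the ovary of the dry cow, without the ovary or without lymphocytes were chosen after seeing the data. The cause of the changes was not tested. No paired analysis was possible because each gland has 1 library and no test was made. For the same reason no library of a gland could be left out in turn. Unknown depth limits all low levels.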
